A study of Homo sapiens with 12 samples.

Results

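The effect of insulin on RNA levels was compared between 12Z cells that carried an empty plasmid and 12Z cells that carried mutant PIK3CA. For every gene, the insulin response of control cells was subtracted from the insulin response of H1047R cells, and it was asked whether the remainder differed from 0. The comparison used all 12 libraries of the series. Of 60617 gene identifiers, 22756 held at least 1 count per library on average and were tested, and 2064 of these had insulin responses that differed between plasmids. Each of the 2064 genes was then placed in a response class according to which of its insulin responses passed the test and with what sign.

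Insulin binds a receptor tyrosine kinase at the cell surface that recruits phosphoinositide 3-kinase (PI3K). Its lipid product activates the kinase AKT, which promotes growth through mTORC1, keeps FOXO transcription factors out of the nucleus and favors glucose uptake and glycolysis. PIK3CA encodes p110α, the catalytic subunit of PI3K, and H1047R is an activating change in its kinase domain that is common in endometrial cancer and is also found in benign endometrium. Feedback is built into the pathway, since many of the genes that it changes encode kinase inhibitors, phosphatases and receptor adaptors.

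12Z is an immortalized human epithelial line from endometriosis, in which tissue resembling the uterine lining grows elsewhere. Every sample, controls included, had first been given non-targeting siRNA. A pBabe plasmid was transfected transiently 24 h later, either empty (control) or with PIK3CA H1047R, so plasmid uptake can vary from cell to cell and no clone was selected. One day after the plasmid, serum was withdrawn for 4 h, and 100 nM insulin or vehicle was added for 24 h. The 4 groups were vehicle and insulin for each plasmid (control vehicle, control insulin; H1047R vehicle, H1047R insulin), each with 3 libraries from independent experiments. Keratins of simple epithelium were abundant (KRT8, 1360 to 1500 CPM, the counts of a gene scaled by the TMM-adjusted library total), but EPCAM and CDH1, epithelial adhesion proteins, were at or below 1.06 and 2.38 CPM, while VIM and COL1A1, both mesenchymal markers, reached 2350 and 3000 CPM. CD3E, which marks T cells, was at 0 in all libraries, and the 6 leukocyte markers summed to at most 6.64 CPM. In bulk RNA, a change in the number of cells that express a gene cannot be told apart from a change in RNA per cell.

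Library totals were 21483124 to 29255708 gene counts in the first 3 groups and 30071951 to 37918025 in H1047R insulin. H1047R insulin libraries also had fewer reads placed at several sites (8.48 to 9.51%, against 13.6 to 15.4% elsewhere) and more genes with a count (25056 to 25599, against 22883 to 24207). After all libraries were thinned at random to the smallest total, 1876 genes were called, and 1811 of these were among the 2064. H1047R vehicle replicate 1 stood apart from its group. It was the highest of the 3 H1047R vehicle libraries for 78.1% of the genes called higher in the comparison and the lowest for 68.6% of those called lower, against 38.1% and 36.3% of all genes tested. Without it, 2564 genes were called, and 1974 of these were among the 2064.

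The transfected gene was examined first. PIK3CA (chr3:179148114-179240093, hg38) held 89.0, 88.2 and 88.7 CPM in control vehicle and 81.0, 85.9 and 80.9 CPM in control insulin. It held 312, 180.1 and 215 CPM in H1047R vehicle and 734, 714 and 715 CPM in H1047R insulin, so the 2 control groups lay below every H1047R library and the 2 H1047R groups did not overlap. The response of PIK3CA to insulin differed by 1.72 ± 0.123 on the log2 scale (± SE here and below, adjusted p = 3.81e-14, edgeR). RNA from the plasmid and from the chromosomal gene cannot be told apart in these counts. The insulin response of H1047R cells was thus measured across a rise of PIK3CA RNA by 1.62 ± 0.0839 (log2), and in these cells, and in the difference between the responses, an effect of insulin cannot be told apart from an effect of more PIK3CA. In control cells the response of PIK3CA was -0.10 ± 0.0912 (adjusted p = 0.672).

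**Figure D1:**
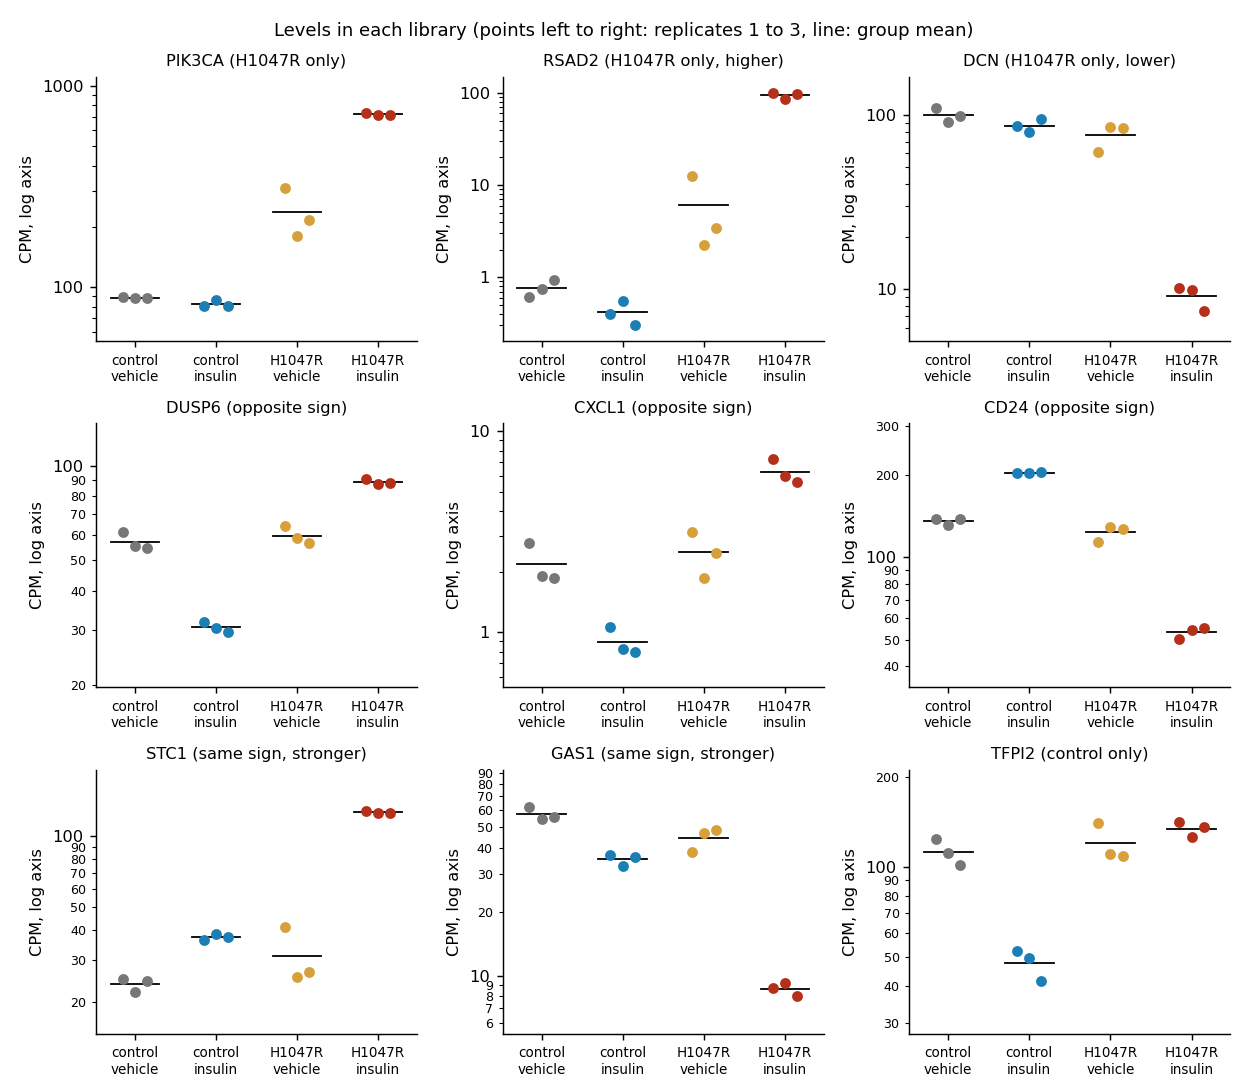
Level of 9 genes in each of the 12 libraries, in CPM on log axes. Points are replicates 1 to 3 from left to right and lines are group means. The class of each gene is in its title. DUSP6, CXCL1 and CD24 move in opposite directions from vehicle to insulin in control and H1047R cells, and H1047R vehicle replicate 1 (312 CPM) holds the most PIK3CA of the H1047R vehicle libraries.

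To determine how the insulin response changed with the plasmid, both responses were fitted together and the difference between them was tested across all genes. In total 2064 genes differed (9.07% of those tested) at a false discovery rate (FDR) below 0.001. The difference was higher, that is, toward more RNA with insulin in H1047R cells, for 1043 genes (4.58%) and lower for 1021 genes (4.49%). It was over 2-fold for 235 genes in the higher and 94 in the lower direction. Measured on its own with the same threshold, insulin changed 372 genes in control cells (1.63%) and 4471 genes in H1047R cells (19.6%), and the plasmid without insulin changed 36 genes (0.158%). In 993 of the 1043 higher genes the 3 H1047R insulin libraries lay above all other 9 libraries, and in 1008 of the 1021 lower genes they lay below. Among all genes tested, they lay above in 15.9% and below in 15.2%. The called genes were selected on these same values, so this order describes the calls and adds no support. The median difference over all genes tested was -0.0139 on the log2 scale. All 2064 genes kept the direction of their difference when it was taken between CPM values rather than logarithms, as did 22029 of all 22756 genes tested.

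Most genes with a different response belonged to a single class. For 1815 of the 2064 genes (87.9%), insulin changed the level in H1047R cells and did not pass the test in control cells. In the 886 of these with a higher difference, the median insulin response was -0.0411 in control cells and 0.567 in H1047R cells (log2 fold change). In the 929 with a lower difference, the medians were 0.00844 and -0.445. A further 68 genes responded in the same direction with either plasmid and more strongly with H1047R, and 4 responded in the same direction but less strongly. Insulin moved 58 genes in opposite directions. In 45 genes the response passed the test in control cells only, and in 74 genes neither response passed on its own although their difference did. These classes describe the fit, and a gene that misses the threshold in 1 cell type may still respond there.

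The size of the smaller classes depended on single libraries. Without control insulin replicate 2, insulin changed 233 genes in control cells, and the classes of the same direction but stronger, the same direction but weaker, and control only held 36, 2 and 27 genes. Without control vehicle replicate 2, the stronger and the control only classes held 36 and 29 genes. Without H1047R vehicle replicate 1, the stronger class held 112. Without control insulin replicate 3, 47 genes were called in the difference alone. The weaker class also held 2 genes without H1047R vehicle replicate 2 or without H1047R insulin replicate 1. When each library was left out in turn, the opposite sign class held 42 to 85 genes and the H1047R only class 1331 to 2216.

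**Figure D2:**
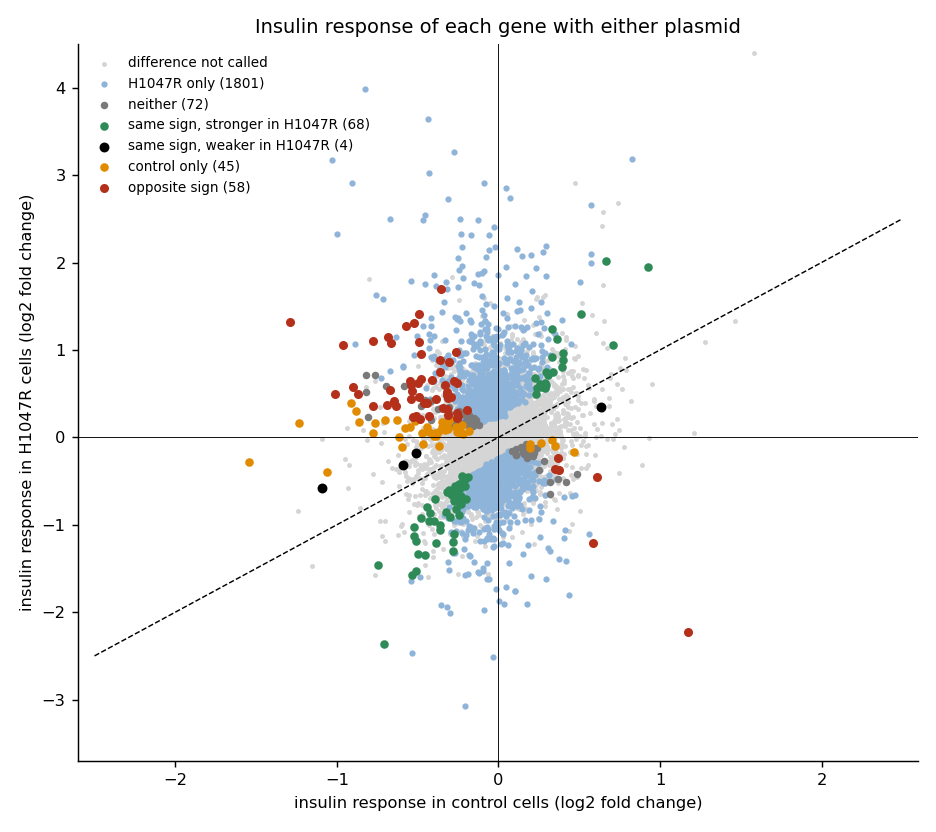
Insulin response of each gene in control cells (x axis) and H1047R cells (y axis), as log2 fold changes, for the 13302 genes averaging at least 1 CPM, of which 2048 were called in the difference. Colors mark the response classes with the number drawn, the dashed line marks equal responses, and 1 gene beyond the axes is drawn at the edge. Most called genes lie along the vertical line of no response in control cells, and the opposite sign class lies mainly in the upper left.

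The 58 genes that insulin moved in opposite directions were considered next, because in these genes the sign of the response, and not merely its size, differed between plasmids. For 52 genes, insulin lowered the level in control cells and raised it in H1047R cells. Their median responses were -0.483 and 0.528, while their median difference between the plasmids without insulin was 0.109. In all 52, the 3 control insulin libraries were the lowest and the 3 H1047R insulin libraries the highest of the 12. That order held in 1.38% of all genes tested, and the class was sorted on these same values.

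DUSP6 (chr12:89347235-89352501, hg38), a phosphatase that inactivates ERK, held 61.4, 55.5 and 54.6 CPM in control vehicle and 31.9, 30.5 and 29.5 CPM in control insulin. With H1047R it held 64.4, 58.6 and 56.6 CPM in vehicle and 90.8, 87.6 and 88.3 CPM in insulin. The vehicle groups overlapped, whereas the insulin groups lay on either side of them. The insulin response of DUSP6 was -0.90 ± 0.0556 in control cells and 0.57 ± 0.0503 in H1047R cells (log2 fold changes), a difference of 1.47 ± 0.075 (adjusted p = 1.56e-18, edgeR). CXCL1 (chr4:73869393-73871308, hg38), a chemokine that attracts neutrophils, showed the widest difference of the class among genes raised in H1047R cells, at 2.61 ± 0.278 (adjusted p = 1.35e-09). It was a low gene, with 2.78, 1.89 and 1.87 CPM in control vehicle, 1.06, 0.825 and 0.796 in control insulin, 3.16, 1.87 and 2.49 in H1047R vehicle and 7.28, 5.97 and 5.60 in H1047R insulin. CEMIP, which binds and helps degrade hyaluronan, responded by -1.01 ± 0.0438 in control cells and by 0.50 ± 0.0418 in H1047R cells. Its control insulin libraries held 119, 111 and 122 CPM and its H1047R insulin libraries 427, 381 and 391 CPM.

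Others encode proteins of the cell surface or secreted proteins. ITGA2, the α2 integrin that binds collagen, went from 55.7, 56.3 and 54.0 to 46.2, 44.4 and 39.0 CPM with insulin in control cells. In H1047R cells it went from 73.9, 57.9 and 66.0 to 219.7, 208 and 213 CPM, and the responses differed by 2.05 ± 0.083 (adjusted p = 1.04e-21). NT5E (CD73), an ecto-enzyme that makes adenosine, differed by 1.90 ± 0.106, with 71.1, 72.9 and 65.3 CPM in control insulin and 349, 317 and 329.8 CPM in H1047R insulin. The difference was 1.84 ± 0.104 for PLAU, the urokinase plasminogen activator, 1.85 ± 0.0939 for PTX3, a soluble pattern recognition protein, and 1.74 ± 0.125 for COL13A1, a transmembrane collagen. HHIP, which binds hedgehog ligands, differed by 2.02 ± 0.184. Among transcription factors, MAFF, a basic leucine zipper protein, fell by 0.78 in control cells and rose by 1.10 in H1047R cells, and NPAS2, a relative of the circadian protein CLOCK, differed by 1.83 ± 0.147. PHLDA1, an immediate growth factor target, differed by 1.58 ± 0.0731.

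Insulin did the reverse for 6 genes, raising them in control cells and lowering them in H1047R cells. CD24 (chr6:106969831-106975627, hg38), a sialoglycoprotein of the cell surface, held 138, 131 and 138 CPM in control vehicle and 203, 202 and 205 CPM in control insulin. It held 113, 129 and 127 CPM in H1047R vehicle and 50.2, 54.3 and 54.9 CPM in H1047R insulin, so the insulin groups lay on either side of all vehicle libraries. The responses were 0.59 ± 0.0447 and -1.21 ± 0.0475, a difference of -1.80 ± 0.0652 (adjusted p = 6.97e-23). ALDH1A1, which makes retinoic acid, showed the widest difference in the class at -3.40 ± 0.379 (adjusted p = 3.93e-09), although at low levels. It held 4.37, 3.54 and 5.19 CPM in control insulin and 0.229, 0.358 and 0.389 CPM in H1047R insulin. The other genes were CDH6, a cadherin (-1.07 ± 0.129), the chemokine CXCL12 (-0.75 ± 0.0641), MAP2K6, a kinase of the p38 pathway (-0.71 ± 0.101) and NREP (-0.60 ± 0.0624). In all 6, the control insulin libraries were the highest and the H1047R insulin libraries the lowest of the 12, against 0.98% of all genes tested. These genes too were sorted on the same values, so the order adds no support.

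**Figure D3:**
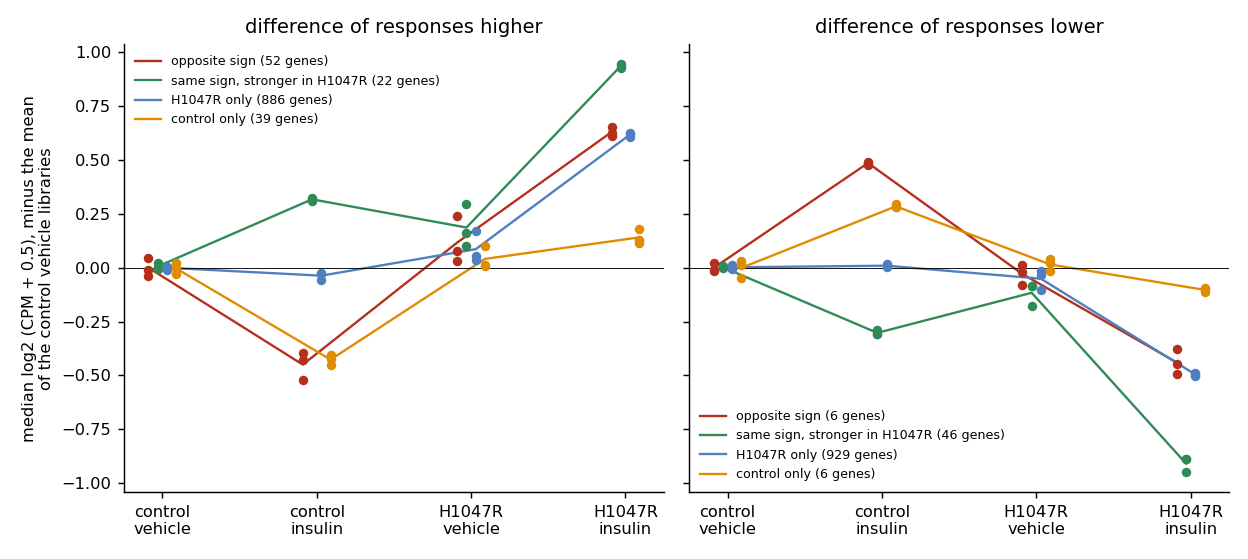
Median level of each response class in each library, as log2(CPM + 0.5) minus the mean of the 3 control vehicle libraries, for genes with a higher (left) and lower (right) difference of insulin responses. Points are libraries and lines join the group means. The 52 genes of opposite sign lie below 0 in control insulin and above 0 in H1047R insulin, while H1047R vehicle stays within 0.240 of control vehicle in these classes apart from the stronger class.

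In 22 genes insulin raised the level with either plasmid, more so with H1047R, with median responses of 0.317 and 0.753. The 8 with the widest difference included genes of glycolysis, hypoxia and the amino acid response. STC1, a secreted stanniocalcin, held 24.9, 22.0 and 24.4 CPM in control vehicle, 36.5, 38.7 and 37.6 in control insulin, 41.3, 25.4 and 26.6 in H1047R vehicle and 127, 125 and 125 in H1047R insulin. H1047R insulin lay above all others, and the H1047R vehicle libraries reached above control insulin only in replicate 1. The insulin response of STC1 was 0.67 ± 0.0916 in control cells and 2.02 ± 0.0821 in H1047R cells, a difference of 1.35 ± 0.124 (adjusted p = 2.92e-11). CHAC1 (chr15:40952962-40956512, hg38), which degrades glutathione, responded by 0.93 ± 0.131 and 1.95 ± 0.0957, a difference of 1.02 ± 0.169 (adjusted p = 1.01e-05). The difference was 0.76 ± 0.0712 for the angiogenic factor VEGFA, 0.90 ± 0.102 for PFKFB4, which makes an activator of glycolysis, and 0.90 ± 0.0848 for the transcription factor KLF10. It was 0.59 ± 0.0663 for WARS1, the tryptophanyl-tRNA synthetase, 0.56 ± 0.0805 for HK2, a hexokinase, and 0.48 ± 0.0677 for SLC2A1, the glucose transporter GLUT1. Each of these 8 genes also rose in control cells, by 0.33 (WARS1) to 0.93 (CHAC1).

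In 46 genes insulin lowered the level with either plasmid, with medians of -0.29 and -0.807. GAS1 (chr9:86944362-86947506, hg38), a membrane protein first known from growth-arrested cells, held 62.2, 54.7 and 56.1 CPM in control vehicle, 36.9, 32.9 and 36.0 in control insulin, 38.1, 46.7 and 48.4 in H1047R vehicle and 8.72, 9.19 and 7.99 in H1047R insulin. All H1047R insulin libraries lay below the lowest of the others. GAS1 fell by 0.71 in control cells and by 2.36 in H1047R cells, a difference of -1.66 ± 0.104 (adjusted p = 6.75e-16). The tetraspanins TSPAN8 and TSPAN15 differed by -1.04 ± 0.116 and -0.83 ± 0.0762. Extracellular proteins included ADAMTS5, an aggrecanase (-1.02 ± 0.131), CCDC80 (-0.89 ± 0.0558) and SVEP1 (-0.84 ± 0.0917), together with MMP24, a membrane-bound metalloproteinase (-0.92 ± 0.0794), and the guidance protein SEMA5A (-1.02 ± 0.0728). CCDC80 was the most abundant of these, at 1033, 1127 and 1099 CPM in control vehicle and 402, 417 and 394 CPM in H1047R insulin.

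The 4 genes with a weaker response in H1047R cells were CCN2, ALDH1A3, DKK1 and PSAT1. CCN2 (connective tissue growth factor), a target of YAP, held 67.0, 67.5 and 67.6 CPM in control vehicle and 34.4, 30.1 and 30.1 CPM in control insulin. In H1047R cells it held 69.2, 67.7 and 69.1 CPM in vehicle and 48.8, 44.1 and 44.7 CPM in insulin, so all vehicle libraries lay between 67.0 and 69.2 CPM and the insulin groups did not overlap. It fell by 1.09 in control cells and by 0.58 in H1047R cells (difference 0.51 ± 0.0742, adjusted p = 1.08e-06). The difference was 0.33 ± 0.0509 for ALDH1A3, a second enzyme of retinoic acid synthesis, and 0.27 ± 0.058 for DKK1, a WNT antagonist. PSAT1, an enzyme of serine synthesis, rose with either plasmid and differed by -0.29 ± 0.0599. DKK1 was no longer called when 1 of these libraries was left out: replicate 3 of control vehicle, replicate 2 of control insulin, H1047R vehicle replicate 2 or H1047R insulin replicate 1 (adjusted p = 0.00196, 0.00435, 0.00212 and 0.00355). The same held for PSAT1 and replicate 1 or 2 of control vehicle, replicate 2 of control insulin, H1047R vehicle replicate 2, or H1047R insulin replicate 2 or 3 (adjusted p = 0.00136, 0.0029, 0.00158, 0.00188, 0.00225 and 0.00152).

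In 39 genes insulin lowered the level in control cells, while the response of H1047R cells did not pass the test and the difference was higher. TFPI2 (chr7:93885396-93890753, hg38), an inhibitor of serine proteases, held 124, 111 and 102 CPM in control vehicle and 52.2, 49.5 and 41.4 CPM in control insulin. In H1047R cells it held 141, 110.4 and 109 CPM in vehicle and 141, 126 and 136 CPM in insulin, and these groups overlapped. Its response was -1.24 ± 0.0742 in control cells and 0.16 ± 0.0686 in H1047R cells (adjusted p = 0.0683), a difference of 1.40 ± 0.101 (adjusted p = 4.55e-14). ANKRD1, a nuclear target of YAP, had the largest response of the group in control cells, -1.54 ± 0.114, against -0.28 ± 0.0953 in H1047R cells (adjusted p = 0.0198). Differences in the granin SCG2, the IGFBP protease PAPPA and the decoy receptor TNFRSF11B (osteoprotegerin) were 1.18 ± 0.113, 1.04 ± 0.118 and 0.93 ± 0.0697. TNFRSF11B fell from 139, 124 and 129.9 to 77.4, 78.1 and 75.3 CPM in control cells, whereas it held 140.3, 124 and 123 CPM in H1047R vehicle and 151, 147 and 136 CPM in H1047R insulin. ACTBL2, an actin relative, and NTM, an adhesion protein, differed by 1.31 ± 0.2 and 0.90 ± 0.148. Reads of ACTBL2 may be shared with other actin genes.

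In 6 further genes insulin raised the level in control cells only. LIPA, the lysosomal acid lipase, held 171, 171 and 163 CPM in control vehicle and 203, 203 and 201 CPM in control insulin, and 163 to 174 CPM and 156 to 165 CPM in the corresponding H1047R groups. GPC6, a glypican, differed by -0.46 ± 0.0787 and PHGDH, the first enzyme of serine synthesis, by -0.32 ± 0.0558. PHGDH and PSAT1 catalyze successive steps of the same pathway, and insulin raised each of them in control cells (0.20 ± 0.0395 and 0.63 ± 0.0425).

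The widest difference of all, in RSAD2, was found where the response of control cells did not pass the test. Of the 886 genes that only H1047R cells raised, the 8 with the widest difference were RSAD2, IFI44L, OAS2, CMPK2, OASL and OAS1, all of them known as interferon-stimulated, together with CXCL8 and ACTN2. RSAD2 (viperin; chr2:6865557-6898239, hg38), an antiviral radical SAM enzyme, held 0.609, 0.750 and 0.934 CPM in control vehicle and 0.404, 0.550 and 0.303 CPM in control insulin. It held 12.6, 2.22 and 3.40 CPM in H1047R vehicle and 99.0, 86.2 and 98.1 CPM in H1047R insulin. All H1047R libraries lay above all control libraries, and H1047R vehicle replicate 1 held the most RSAD2 outside H1047R insulin. The insulin response was -0.83 ± 0.742 in control cells (adjusted p = 0.667) and 3.98 ± 0.183 in H1047R cells, a difference of 4.81 ± 0.822 (adjusted p = 1.86e-05). ACTN2, a muscle α-actinin, differed by 4.07 ± 0.789 (adjusted p = 0.000122) and was below 1 CPM in every library outside H1047R insulin. It was no longer called when control vehicle replicate 2 or 3 was left out (adjusted p = 0.00242 and 0.00115).

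Of the 929 genes that only H1047R cells lowered, DCN (chr12:91140484-91183217, hg38) showed the widest difference among those averaging at least 1 CPM. DCN encodes decorin, a small proteoglycan that binds collagen. It held 109.5, 91.2 and 98.9 CPM in control vehicle, 86.0, 79.1 and 94.2 in control insulin, 61.0, 84.7 and 83.8 in H1047R vehicle and 10.1, 9.90 and 7.54 in H1047R insulin. The last group lay below all others, and the difference was -2.86 ± 0.125 (adjusted p = 1.32e-20). WNT2, a WNT ligand, differed by -2.48 ± 0.228, MC4R, the melanocortin 4 receptor, by -2.08 ± 0.185, and GYG2, a glycogenin that primes glycogen synthesis, by -1.94 ± 0.174. LRRTM3, a leucine-rich membrane protein, differed by -2.23 ± 0.245. These 4 were at or below 10.03 CPM in all libraries.

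To place these genes in pathways, 26 gene lists were examined, whose members were chosen with earlier results of these data known. The counts are therefore a description and not independent evidence of direction, and no count was tested against those of other genes. The share of members called is to be read against 4.58% higher and 4.49% lower among all genes tested. Those shares include genes with few counts, which were rarely called. Of the 13302 genes averaging at least 1 CPM, 2048 were called in either direction. A list of expressed genes can thus exceed the shares over all genes without differing from expressed genes as a whole.

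**Figure D4:**
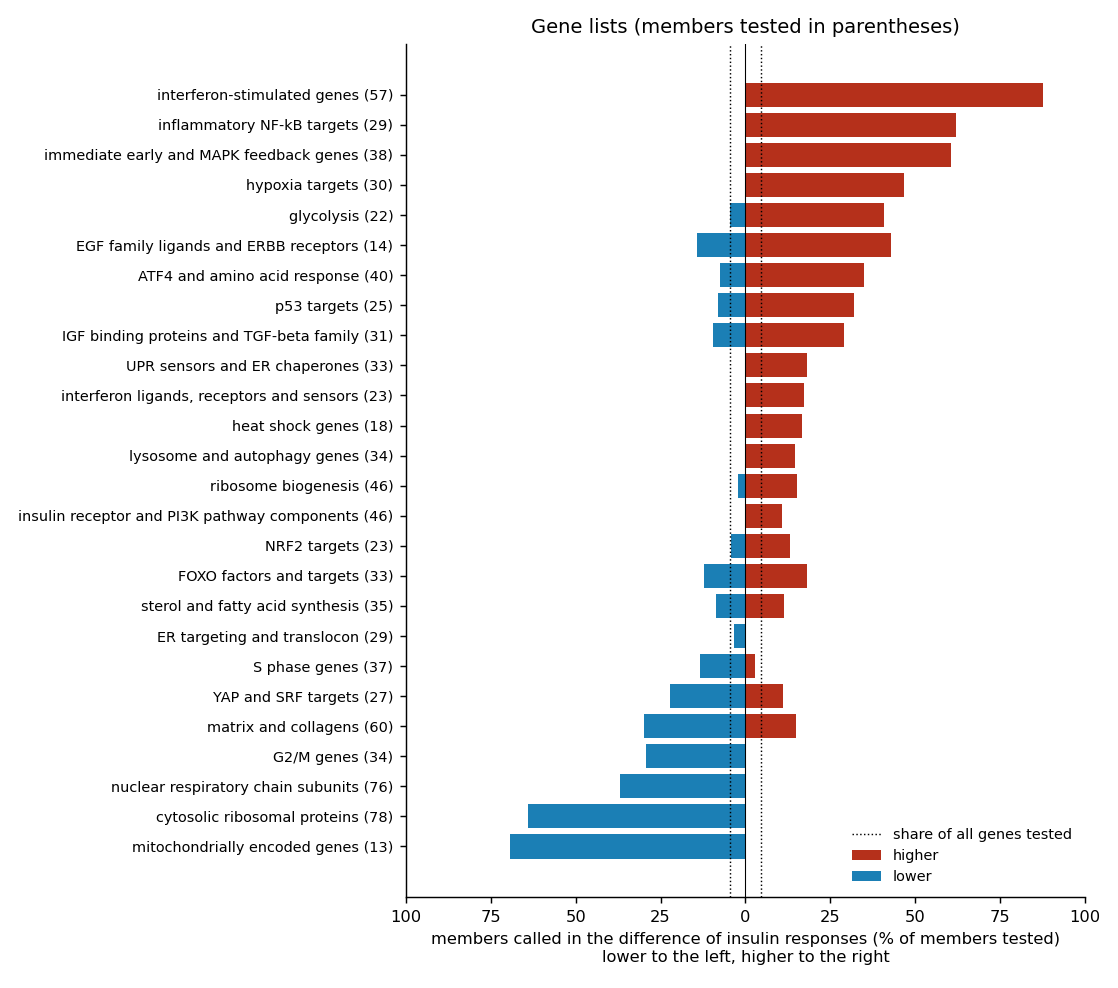
Share of the members tested of each of 26 gene lists that was called in the difference of insulin responses, lower to the left and higher to the right, with the share of all genes tested as dotted lines (4.49% and 4.58%). Interferon-stimulated genes have the largest share called higher (50 of 57) and mitochondrially encoded genes the largest share called lower (9 of 13).

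Interferon-stimulated genes encode antiviral effectors whose RNA type I interferon induces. Of 57 tested (59 listed), 50 were higher and 0 lower, with a median difference of 1.56, and none was called in control cells. All 50 belonged to the class that responded in H1047R cells only. The summed level of the list was 2724, 2929 and 2640 CPM in control vehicle and 2615, 2589 and 2632 CPM in control insulin. It was 4686, 3003 and 3179 CPM in H1047R vehicle and 9641, 7845 and 8794 CPM in H1047R insulin. Replicate 1 was the highest H1047R vehicle library for 55 of the 57 genes, and without it 52 were higher with a median of 1.92.

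The largest differences after RSAD2 were in IFI44L (4.20 ± 0.89), whose levels stayed below 1 CPM in control cells, and OAS2 (3.82 ± 0.584), a synthetase that activates RNase L. OAS2 held 2.57, 2.37 and 1.74 CPM in control insulin, 40.9, 6.82 and 13.3 in H1047R vehicle and 187, 119 and 149.8 in H1047R insulin. OASL and OAS1, of the same family, differed by 3.45 ± 0.356 and 3.17 ± 0.468. CMPK2, a mitochondrial nucleotide kinase and neighbor of RSAD2, differed by 3.54 ± 0.516. Without control vehicle replicate 2, the calls of OAS2 and CMPK2 were lost (adjusted p = 0.00137 and 0.00116). IFI44L was no longer called when replicate 1 or 2 of control vehicle or replicate 2 of control insulin was left out (adjusted p = 0.0033, 0.0386 and 0.00207), nor in DESeq2 (adjusted p = 0.00183). The calls of RSAD2, OASL and OAS1 held without any single library.

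Because these genes moved together, their promoters were searched for the core of the interferon-stimulated response element (ISRE), written GAAANNGAA on either strand, in the 250 bases before the start site. RefSeq promoters (GRCh38.p14) were matched for 43 of the 57 genes (75.4%), and 26 of the 43 (60.5%) held the element, against 7.04% of all 27305 promoters and 5.53% of the 13367 tested genes with one. Fewer than 80% of the list, and 58.7% of all tested genes, had a promoter, so the share is void as a check of the list as a whole and describes the matched promoters alone. It counts members whether or not they were called, so it reflects the choice of list and not the responses. The element was in 7.40% of promoters of all genes called higher and in 4.58% of those called lower. The 6 members with the widest difference among those that held it are shown with the element in capitals, and were picked after their values were known.
RSAD2: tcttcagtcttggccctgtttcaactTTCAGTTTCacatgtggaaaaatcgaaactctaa
IFI44L: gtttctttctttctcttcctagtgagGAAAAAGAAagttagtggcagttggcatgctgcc
IFI44: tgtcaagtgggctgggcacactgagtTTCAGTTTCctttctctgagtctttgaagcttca
IFIT3: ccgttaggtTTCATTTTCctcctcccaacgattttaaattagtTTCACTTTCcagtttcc
HERC5: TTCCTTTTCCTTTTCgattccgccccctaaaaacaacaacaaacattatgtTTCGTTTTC
DDX60: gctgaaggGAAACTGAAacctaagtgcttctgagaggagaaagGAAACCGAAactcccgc
The stretches lie at chr2:6877607-6877666 (RSAD2), chr1:78620349-78620408 (IFI44L), chr1:78649746-78649805 (IFI44), chr10:89327833-89327892 (IFIT3) and chr4:88456995-88457054 (HERC5), all on the plus strand, and at chr4:168318789-168318848 on the minus strand (DDX60). Capitals that read TTC at their left end hold the element on the opposite strand. Within the printed stretches, IFIT3 and DDX60 held 2 copies and HERC5 held 3, of which 2 overlap. IFI44L held a second copy outside its stretch, 155 to 164 bases upstream. The differences of IFI44, IFIT3, HERC5 and DDX60 were 2.998 ± 0.367, 2.73 ± 0.181, 2.55 ± 0.281 and 2.48 ± 0.212. A match of these letters does not show that a factor binds there.

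A separate list was made of ligands, receptors and sensors of the interferon system. Of 23 tested (26 listed), 4 were higher and 0 lower, with a median of 0.232. They were IFI16, a sensor of DNA (0.75 ± 0.0734), TRIM25, a ubiquitin ligase that activates RIG-I (0.74 ± 0.0821), TICAM1, the adaptor of TLR3 (0.69 ± 0.091), and ADAR, which edits double-stranded RNA (0.42). None of these 4 is itself an interferon or an interferon receptor.

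Of 29 inflammatory genes that are targets of NF-kB (33 listed), 18 were higher and 0 lower, with a median of 1.12. Insulin lowered 6 of the 29 in control cells and raised 22 in H1047R cells, and 5 were in the opposite sign class. CXCL8 (interleukin 8), a neutrophil chemokine related to CXCL1, held 1.45, 1.61 and 1.35 CPM in control vehicle and 0.991, 0.756 and 0.455 CPM in control insulin. It held 3.07, 1.99 and 1.74 CPM in H1047R vehicle and 12.9, 10.6 and 10.6 CPM in H1047R insulin. The control groups did not overlap, but the decrease in control cells did not pass the test (-0.999 ± 0.264, adjusted p = 0.0148). The responses differed by 3.32 ± 0.304 (adjusted p = 3.01e-11). IL11, a cytokine of the IL6 family, differed by 2.16 ± 0.153, and rose from 8.97, 6.31 and 6.46 to 26.4, 28.1 and 27.2 CPM in H1047R cells.

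Promoters of this list and of the early genes were searched for AP-1 sites (TGANTCA) and the cyclic AMP response element (CRE, TGACGTCA), and those of ATF4 targets for TGATGNAA, each on either strand and within the same 250 bases. AP-1 letters were in 3 of the 23 promoters of the NF-kB list (13.0%), against 6.49% of all promoters and 4.32% of those of tested genes. The ISRE core was in 5 of these 23 (21.7%), against 7.04% and 5.53%, and no NF-kB site was searched. AP-1 letters were also in 5 of 29 promoters of the control only genes with a higher difference (17.2%). Over the 838 matched genes called higher the share was 7.04%, and over the 808 called lower it was 2.72%. CRE letters were in 3 of 42 promoters of the opposite sign genes that H1047R cells raised (7.14%) and in 3 of 28 promoters of the early genes (10.7%), against 1.83% of all promoters and 2.80% of those of tested genes, and AP-1 letters were in 0 of either. The G2/M list, with 0 members higher and 10 lower, held CRE letters in the same share (3 of 28, 10.7%), and no list held them more often. The ATF4 letters were in 5 of 33 promoters of its list (15.2%), against 3.15% and 1.45%. Shares of lists count members whether or not they were called, so they reflect the choice of list and not the responses. As above, some of these sets have promoters for fewer than 80% of their members, which voids their shares as checks of the whole sets. They are the NF-kB list (79.3%), the early genes (73.7%), the genes called lower (79.1%) and the control only genes with a higher difference (74.4%). An example of each is printed with the letters in capitals, from CXCL8 and IL11 for AP-1, from MAFF of the opposite sign class for the CRE, and from CHAC1 for the ATF4 element, where they lie on the opposite strand.
CXCL8: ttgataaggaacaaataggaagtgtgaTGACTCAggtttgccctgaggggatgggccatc
IL11: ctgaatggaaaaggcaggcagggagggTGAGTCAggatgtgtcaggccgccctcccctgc
MAFF: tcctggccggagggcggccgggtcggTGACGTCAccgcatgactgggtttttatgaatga
CHAC1: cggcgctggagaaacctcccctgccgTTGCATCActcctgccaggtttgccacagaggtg
These are chr4:73740405-73740464, chr22:38201914-38201973 and chr15:40953236-40953295 on the plus strand (CXCL8, MAFF and CHAC1) and chr19:55370527-55370586 on the minus strand (IL11), from RefSeq in GRCh38.p14.

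Immediate early genes and feedback inhibitors of the MAPK pathway were higher for 23 of 38 members and lower for 0, with a median of 0.66. Insulin lowered 11 members and raised 0 in control cells, but raised 23 and lowered 0 in H1047R cells. Its summed level was 1663, 1609 and 1614 CPM in control vehicle and 1377, 1363 and 1294 CPM in control insulin. It was 1828, 1640 and 1687 CPM in H1047R vehicle and 2504, 2499 and 2531 CPM in H1047R insulin. The 7 members of the opposite sign class were PHLDA1, DUSP6, DUSP4, SPRY2, SPRY4, ETV4 and KLF6, with differences from 0.56 (KLF6) to 1.58 (PHLDA1). DUSP and SPRY proteins restrain ERK signaling, and ETV4 is a factor induced by it. In SPRY1, ETV1, ETV5 and MYC the decrease passed the test in control cells only, with differences from 0.41 (MYC) to 0.67 (SPRY1). FOSL1, a subunit of AP-1, differed by 2.25 ± 0.122 and held 12.9, 13.1 and 10.6 CPM in control insulin, 26.0, 17.8 and 19.1 in H1047R vehicle and 76.6, 76.6 and 73.9 in H1047R insulin. KLF4, a zinc finger factor, differed by 2.02 ± 0.109.

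**Figure D5:**
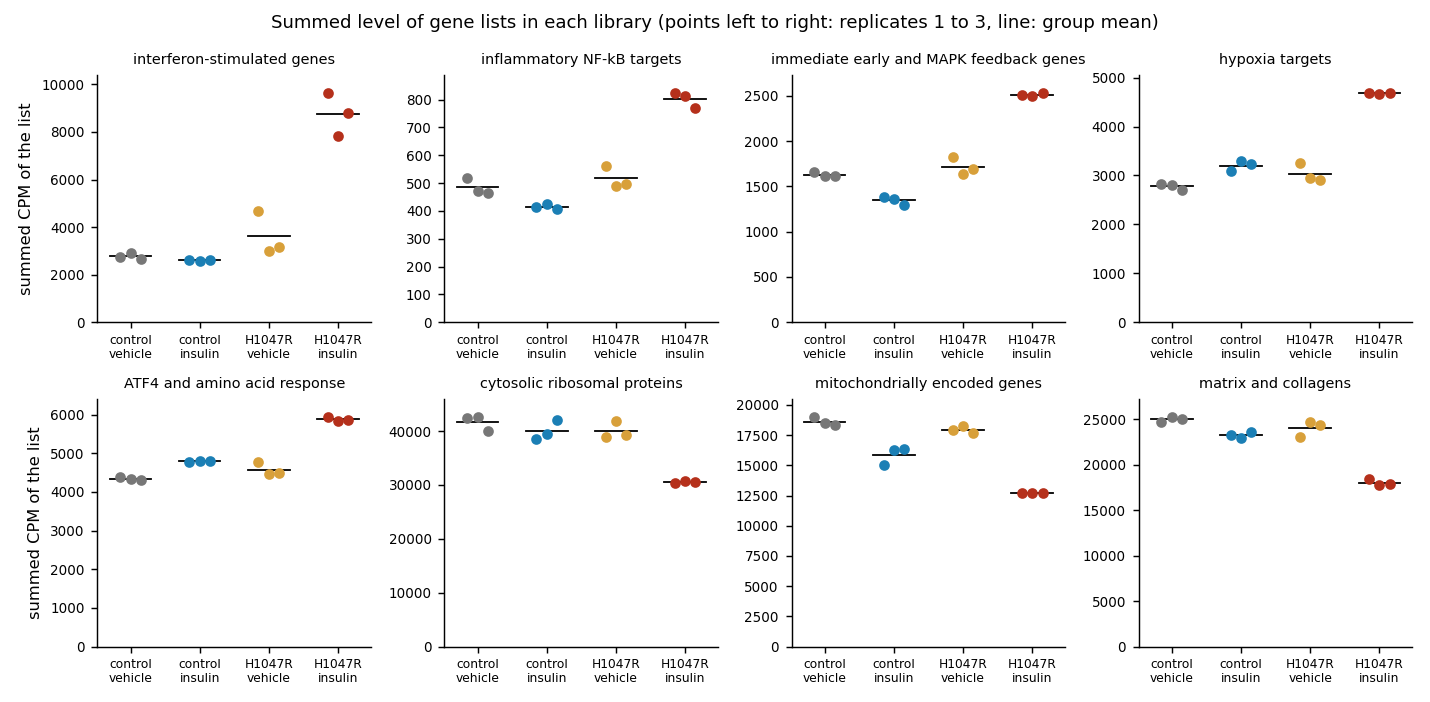
Summed level of 8 gene lists in each of the 12 libraries, in CPM. Points are replicates 1 to 3 from left to right and lines are group means. In every list drawn, the 3 H1047R insulin libraries lie apart from all others. Control insulin lies below control vehicle for immediate early genes and above it for hypoxia and ATF4 targets.

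Of 14 EGF family ligands and ERBB receptors (15 listed), 6 were higher and 2 lower. The ligands AREG (amphiregulin) and HBEGF differed by 1.85 ± 0.387 and 0.71 ± 0.126, and the receptor ERBB3 by -0.69 ± 0.0928. ERBB3 held 21.4, 22.7 and 23.0 CPM in control insulin and 13.0, 12.5 and 13.5 CPM in H1047R insulin. AREG was below 1 CPM outside H1047R insulin, and it was no longer called when replicate 2 of control vehicle, replicate 2 or 3 of control insulin, H1047R vehicle replicate 2 or H1047R insulin replicate 1 was left out (adjusted p = 0.00902, 0.00156, 0.00115, 0.00176 and 0.00109). Without control insulin replicate 3, H1047R vehicle replicate 2, or H1047R insulin replicate 1 or 3, 1 member of this list was lower in place of 2.

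Components of the insulin and PI3K pathway itself mostly did not pass the test. Of 46 tested, 5 were higher and 0 lower, and the median was -0.021. Without H1047R insulin replicate 2, 1 was lower. GRB10, an adaptor that inhibits the insulin receptor, held 32.6, 31.4 and 33.3 CPM in control vehicle and 34.5, 36.2 and 33.7 CPM in control insulin, against 51.9, 33.4 and 37.2 CPM in H1047R vehicle and 137, 139.6 and 137 CPM in H1047R insulin. No control library exceeded 36.2 CPM and H1047R insulin lay above all others, a difference of 1.66 ± 0.11 (adjusted p = 4.19e-15). TRIB3, a pseudokinase that binds AKT, differed by 0.77 ± 0.0785. SGK1, a kinase related to AKT, and the insulin receptor substrate IRS1 were both in the opposite sign class, with differences of 0.76 ± 0.0618 and 0.68. The fifth was INPP4B, a lipid phosphatase (0.36), for which neither response was called.

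FOXO factors and their targets were divided, with 6 of 33 tested (37 listed) higher and 4 lower and a median of 0.0898. The higher ones included GADD45A, a stress protein (1.53 ± 0.0953), the death ligand TNFSF10 (TRAIL; 1.27 ± 0.147), and TXNIP, which restrains glucose uptake (0.79 ± 0.0844). GADD45A also belongs to the p53 list and TNFSF10 is also known as interferon-stimulated. Without control insulin replicate 3, 2 were lower.

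Of 40 targets of ATF4 and of amino acid shortage, 14 were higher and 3 lower, with a median of 0.215. Insulin raised 15 of them in control cells and lowered none, and raised 31 in H1047R cells and lowered 1. Here 6 members were in the stronger class. ATF3, a stress-induced factor, held 5.06, 4.57 and 4.86 CPM in control vehicle, 5.98, 5.53 and 5.08 in control insulin, 15.2, 7.52 and 8.66 in H1047R vehicle and 45.1, 43.8 and 43.5 in H1047R insulin. Its responses differed by 1.89 ± 0.2. PPP1R15A (GADD34), which reverses the phosphorylation of eIF2α, differed by 1.49 ± 0.0776, and SLC3A2, a subunit of amino acid transporters, by 1.05 ± 0.0855. The 3 lower members were NUPR1 (-0.87), PHGDH and PSAT1.

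Of 33 sensors and chaperones of the unfolded protein response, 6 were higher and 0 lower, with a median of 0.111. They included ERO1A, an oxidase of the endoplasmic reticulum (ER) that is also a hypoxia target (0.48 ± 0.0613), and XBP1, the transcription factor spliced by IRE1 (0.42 ± 0.0775), whose call was lost in DESeq2 (adjusted p = 0.00321). Without H1047R vehicle replicate 2 or control insulin replicate 3, 2 and 3 members were higher. Of 29 components of ER targeting and the translocon, 0 were higher and 1 was lower, SEC62 (-0.28 ± 0.0559), a share below the background, and the median was -0.102. SEC62 lost its call without H1047R insulin replicate 3 (adjusted p = 0.00137), which left 0 lower. From 2 to 5 members of that list were lower without replicate 1 of control vehicle or control insulin, or without H1047R vehicle replicate 1 or 3.

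Part of the glycolysis and hypoxia lists rose with insulin. Of 22 glycolysis genes, 10 rose and 0 fell in control cells, 17 rose and 1 fell in H1047R cells, and the responses differed upward in 9 and downward in 1. Besides PFKFB4, HK2 and SLC2A1, PFKFB3, a second enzyme that makes the same activator of glycolysis, differed by 0.62 ± 0.0904. The lower member was PFKM (-0.31), whose call was lost without any of 8 single libraries: replicates 2 and 3 of control vehicle, replicates 1 and 2 of control insulin, H1047R vehicle replicate 2 or 3, or H1047R insulin replicate 1 or 3. Of 30 hypoxia targets, 10 rose and 0 fell in control cells, 24 rose and 1 fell in H1047R cells, and the responses differed upward in 14 and downward in 0, with a median of 0.345. The core of the hypoxia response element (ACGTG, either strand) was in 15 of 23 matched promoters of this list (65.2%), against 18.7% of all promoters and 22.7% of those of tested genes. As only 76.7% of the list had a promoter, this share too is void as a check of the list. It also counts members whether or not they were called. Among the other lists, the ER targeting list held these letters most often, in 14 of 25 promoters (56%), although 0 of its 29 members were higher.

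Of 78 cytosolic ribosomal proteins (79 listed), 0 were higher and 50 lower, with a median of -0.323. Insulin lowered 1 in control cells and 70 in H1047R cells. Their summed level was 42340, 42570 and 40070 CPM in control vehicle, 38550, 39500 and 41990 in control insulin, 38970, 41810 and 39270 in H1047R vehicle and 30410, 30660 and 30630 in H1047R insulin. RPS29, RPS27 and RPL23 differed most (-0.90 ± 0.0875, -0.63 ± 0.076 and -0.60 ± 0.0656). Ribosomal protein genes have many processed pseudogenes, and reads placed at several sites were not counted. The share of such reads was lower in H1047R insulin, and its part in this result was not tested. Ribosome biogenesis factors showed the opposite direction, with 7 of 46 higher and 1 lower and a median of 0.205, among them NOP14 (0.53 ± 0.0736) and RRP12 (0.46 ± 0.0785). Without H1047R vehicle replicate 1, 13 were higher, and 0 were lower without it, control insulin replicate 3 or H1047R insulin replicate 1.

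Of 76 nuclear-encoded subunits of the respiratory chain, 0 were higher and 28 lower, with a median of -0.249. Examples are NDUFB1 of complex I (-0.61 ± 0.0921) and UQCRB of complex III (-0.51 ± 0.0639). Insulin changed none of the 76 in control cells and lowered 36 in H1047R cells. Of 13 protein-coding genes of the mitochondrial genome, 9 were lower. Here insulin also lowered 7 in control cells, and 5 were in the stronger class. MT-CYB, the cytochrome b of complex III, went from 1961, 1973 and 1934 to 1559, 1687 and 1644 CPM in control cells and from 1778, 1918 and 1805 to 1033, 1068 and 1024 CPM in H1047R cells, a difference of -0.55 ± 0.0492 (adjusted p = 1.51e-11). Mitochondrial genes took 2.16 to 2.20% of counts in H1047R insulin libraries and 2.45 to 2.96% in the others.

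Matrix genes were split, with 9 of 60 tested (61 listed) higher and 18 lower. The lower genes included the small leucine-rich proteoglycans DCN, LUM and BGN (biglycan, -1.76). LUM (lumican) held 427, 392 and 375 CPM in control vehicle, 353, 364 and 409 in control insulin, 267, 336 and 349 in H1047R vehicle and 86.0, 86.8 and 69.1 in H1047R insulin, a difference of -1.89 ± 0.0962 (adjusted p = 1.56e-18). POSTN (periostin) differed by -1.87 ± 0.0724. Both were lower in every H1047R vehicle library than in every control vehicle library. Higher members included CEMIP and the laminin chain LAMB3 (1.32). Of 31 IGF binding proteins and members of the TGF-β family (34 listed), 9 were higher and 3 lower. IGFBP3 and IGFBP6, which bind insulin-like growth factors, differed by 1.36 ± 0.099 and 1.20 ± 0.115, and INHBA, the βA subunit of activin, by 1.16 ± 0.199.

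Of 27 targets of YAP and SRF, 3 were higher and 6 lower, and insulin lowered 6 in control cells and 15 in H1047R cells. The higher genes were ANKRD1, CCN2 and F3 (tissue factor; 0.93 ± 0.0917). ANKRD1 and CCN2 fell with insulin in control cells and fell less, or without passing the test, in H1047R cells. The lower genes included actin and tropomyosin genes and MYL9, a myosin light chain (-0.69 ± 0.0619). Without H1047R vehicle replicate 1, 5 members were higher.

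Lists of growth and stress were also counted. Of 34 G2/M genes, 0 were higher and 10 lower, for example CDK1 (-0.35 ± 0.0561), the mitotic kinase, and KIF20A (-0.37 ± 0.0549), and insulin changed none of the 34 in control cells. The count was 6 without H1047R vehicle replicate 2 or without H1047R insulin replicate 3. Of 37 S phase genes, 1 was higher and 5 lower, and without H1047R vehicle replicate 2 there were 0 and 3. Without replicate 2 of control vehicle or replicate 1 or 2 of control insulin, 0 S phase genes were higher, and without H1047R vehicle replicate 1 there were 2. Of 25 p53 targets, 8 were higher and 2 lower, with PLK3 (1.23 ± 0.137) and AEN (1.05 ± 0.0938) after GADD45A. Without H1047R vehicle replicate 2, 5 were higher, and 1 was lower without any single library other than control vehicle replicate 1, H1047R vehicle replicate 1 or H1047R insulin replicate 3.

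For 34 lysosome and autophagy genes the counts were 5 higher and 0 lower, and 3 higher without replicate 1 of control vehicle, replicate 2 of control insulin, H1047R vehicle replicate 2 or H1047R insulin replicate 1. CTSL, a cathepsin, differed by 0.60 ± 0.0741 and SQSTM1 (p62) by 0.56 ± 0.0639. Of 35 genes of sterol and fatty acid synthesis, 4 were higher and 3 lower, with ACACA, an acetyl-CoA carboxylase, at -0.40 ± 0.0594. Of 23 NRF2 targets (24 listed), 3 were higher and 1 lower, with OSGIN1 at 1.60 ± 0.22 and HMOX1, heme oxygenase 1, at 0.51 ± 0.0908. Of 18 heat shock genes (19 listed), 3 were higher and 0 lower, BAG3 (0.39 ± 0.0678) among them, and 1 was higher without control vehicle replicate 2 or without H1047R insulin replicate 2.

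The insulin response of control cells was also examined from the side of the genes it changed. Of 372 such genes, 175 had a different response in H1047R cells (47.0%) and 197 did not pass that test. The difference was called for 9.07% of all genes tested and for 43.5% of the 4471 genes that insulin changed in H1047R cells. It contains the same control response that selected the 372 genes, so their shares are not independent of that selection. The response differed for 140 of the 262 genes that insulin lowered in control cells (53.4%) and for 35 of the 110 that it raised (31.8%), and these shares were not tested against each other. Of the 262 lowered genes, 172 also had a lower estimate in H1047R cells and 90 had a higher one. Both responses were called in 263 genes. They shared a sign in 205, of which 133 showed no detectable difference in size at this depth and replication.

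The genes called in the difference were nearly all protein coding. Protein-coding genes made up 96.3% of those called higher and 95.4% of those called lower, against 65.3% of all genes tested and 89.9% of those averaging at least 1 CPM. Their median level over the 12 libraries was 38.6 CPM for the higher and 68.5 CPM for the lower genes, against 30.1 CPM for tested genes above 1 CPM. The canonical transcript of the higher genes had a median of 10 exons and 3740 bases, and that of the lower genes 8 exons and 3467 bases, in GENCODE release 44. A gene with more counts is more readily called, so levels and calls are not independent.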

How the data were processed

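RNA from 12 samples of 12Z cells was made into poly(A) libraries and sequenced in pairs. The authors trimmed reads, aligned them with STAR to hg38 and deposited raw counts per gene. For versions of the trimming and alignment tools, the sources used here give nothing, and for the annotation the methods name a mouse GENCODE release, so the human release is not known here. The reverse-strand counts were used, without the summary rows for unmapped (3.12 to 4.09% of read pairs), multimapping, featureless (3.91 to 4.55%) and ambiguous (3.31 to 3.61%) reads. Of 60617 identifiers, 60357 matched GENCODE release 44, and 42009 had a symbol.

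Genes with a mean of 1 count or more were fitted with edgeR 4.0.16 (quasi-likelihood, trimmed mean of M values [TMM], 1 coefficient per group, 8 residual degrees of freedom; R 4.3.3) over all 12 libraries. The interaction and its component contrasts were tested with Benjamini-Hochberg adjustment across 22756 genes at FDR below 0.001. Standard errors were derived from each log2 fold change and its F statistic (absolute value over root F). DESeq2 1.42.0, other scalings, filters and strands, thinning, a looser FDR, a replicate block and leaving out each library were the alternatives. On simulated data, 66.0% of genes with a difference of 0.5 and 88.0% of those with 1 (log2) were recovered among 22283 genes, with 0 unchanged genes called. The changed genes were drawn from those averaging at least 1 CPM, so recovery below that level was not measured. Simulated libraries were independent draws from each gene's mean level over all 12 libraries and its fitted dispersion, and none stood apart as H1047R vehicle replicate 1 did. The changed genes were altered in H1047R insulin alone, and no other effect of insulin or plasmid was simulated. The data hold many such effects, so the recovery and the count of false calls apply to that simpler setting. Replicates differed by more than sampling noise (chi-square per degree of freedom, 2.7 to 5.9). The study describes 3 independent experiments.

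Response classes follow from which insulin responses passed. Genes were named as the 8 with the widest difference per class and direction (12 for opposite signs, 3 where neither response passed) and up to 3 per list, averaging at least 1 CPM, plus PIK3CA and RSAD2. IFI44, IFIT3, HERC5, DDX60, ADAR, BGN, LAMB3, NUPR1, PFKM, IRS1, INPP4B, KLF6, DUSP4, SPRY1, SPRY2, SPRY4, ETV1, ETV4, ETV5 and MYC were named after their values were seen, where the rule did not already name them. The members, lists and rules were chosen with earlier results of these data known. Promoters were the 250 bases before the RefSeq start (GRCh38.p14) nearest the canonical transcript's start. Results for a few members of the lists are not reported here.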

Additional observations from a re-analysis of the deposited data

Results flagged for a closer look

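The difference between the insulin responses of H1047R and control cells was tested directly, as an interaction of plasmid and insulin, and passed the threshold for 1043 genes in the higher and 1021 in the lower direction. The genes named above that passed it are listed by class with the difference on the log2 scale (edgeR, adjusted p below the threshold for each), and no explanation was weighed.

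Among genes with responses of opposite sign, values were found for CXCL1 (2.61), ITGA2 (2.05), HHIP (2.02), NT5E (1.90), MAFF (1.88), PTX3 (1.85), PLAU (1.84), NPAS2 (1.83), COL13A1 (1.74), PHLDA1 (1.58), CEMIP (1.51), DUSP6 (1.47), DUSP4 (1.20) and SPRY2 (1.07). Further values were found for SPRY4 (1.06), ETV4 (0.99), SGK1 (0.76), IRS1 (0.68), KLF6 (0.56), NREP (-0.60), MAP2K6 (-0.71), CXCL12 (-0.75), CDH6 (-1.07), CD24 (-1.80) and ALDH1A1 (-3.40).

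Among genes with a stronger response of the same sign in H1047R cells, values were found for STC1 (1.35), CHAC1 (1.02), KLF10 (0.90), PFKFB4 (0.90), VEGFA (0.76), WARS1 (0.59), HK2 (0.56), SLC2A1 (0.48), MT-CYB (-0.55), TSPAN15 (-0.83), SVEP1 (-0.84), CCDC80 (-0.89), MMP24 (-0.92) and SEMA5A (-1.02). Further values were found for ADAMTS5 (-1.02), TSPAN8 (-1.04) and GAS1 (-1.66).

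Among the 4 genes with a weaker response of the same sign, values were found for CCN2 (0.51), ALDH1A3 (0.33), DKK1 (0.27) and PSAT1 (-0.29).

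Among genes whose response passed in control cells only, values were found for TFPI2 (1.40), ACTBL2 (1.31), ANKRD1 (1.26), SCG2 (1.18), PAPPA (1.04), TNFRSF11B (0.93), NTM (0.90), SPRY1 (0.67), ETV1 (0.53), ETV5 (0.52), MYC (0.41), PHGDH (-0.32), LIPA (-0.34) and GPC6 (-0.46).

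Among genes whose response passed in H1047R cells only, values were found for RSAD2 (4.81), IFI44L (4.20), ACTN2 (4.07), OAS2 (3.82), CMPK2 (3.54), OASL (3.45), CXCL8 (3.32), OAS1 (3.17), IFI44 (2.998), IFIT3 (2.73), HERC5 (2.55), DDX60 (2.48), FOSL1 (2.25) and IL11 (2.16). Further values were found for KLF4 (2.02), ATF3 (1.89), AREG (1.85), PIK3CA (1.72), GRB10 (1.66), OSGIN1 (1.60), GADD45A (1.53), PPP1R15A (1.49), IGFBP3 (1.36), LAMB3 (1.32), TNFSF10 (1.27), PLK3 (1.23), IGFBP6 (1.20) and INHBA (1.16). Others were AEN (1.05), SLC3A2 (1.05), F3 (0.93), TXNIP (0.79), TRIB3 (0.77), IFI16 (0.75), TRIM25 (0.74), HBEGF (0.71), TICAM1 (0.69), PFKFB3 (0.62), CTSL (0.60), SQSTM1 (0.56), NOP14 (0.53) and HMOX1 (0.51). Others were ERO1A (0.48), RRP12 (0.46), ADAR (0.42), XBP1 (0.42), BAG3 (0.39), VIM (0.31), SEC62 (-0.28), PFKM (-0.31), CDK1 (-0.35), KIF20A (-0.37), ACACA (-0.40), UQCRB (-0.51), COL1A1 (-0.53) and RPL23 (-0.60). Others were NDUFB1 (-0.61), RPS27 (-0.63), MYL9 (-0.69), ERBB3 (-0.69), NUPR1 (-0.87), RPS29 (-0.90), BGN (-1.76), POSTN (-1.87), LUM (-1.89), GYG2 (-1.94), MC4R (-2.08), LRRTM3 (-2.23), WNT2 (-2.48) and DCN (-2.86).

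For genes of which neither response passed on its own, values were found for INPP4B (0.36).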

How the results depend on the processing

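The 2064 calls were compared with those of each alternative. DESeq2 called 2254 genes (1996 shared), edgeR with relative log expression size factors 2098 (1978), with library totals 2080 (1907), without a filter on low counts 2406 (1979), with at least 1 CPM in 3 libraries 1962 (1931) and on counts without regard to strand 2019 (1946), and shared calls had the same direction. At FDR below 0.05, 2363 genes were higher and 2485 lower, 1206 and 7812 were called for insulin in control and H1047R cells, and the classes held 254 (stronger), 18 (weaker), 203 (opposite sign), 3929 (H1047R only), 169 (control only) and 275 (neither). With the looser threshold for the insulin responses alone, 146, 196 and 0 genes were stronger, of opposite sign and neither. The weaker class held 2 genes without regard to strand. Leaving out each library gave 800 to 1483 genes higher and 762 to 1081 lower, and 233 to 521 called in control cells. The classes then held 36 to 112 (stronger), 2 to 4 (weaker), 42 to 85 (opposite sign), 1331 to 2216 (H1047R only), 27 to 56 (control only) and 47 to 92 (neither). The cause of these shifts was not tested beyond the number of libraries. Of the 138 genes that the naming rule picked, 116 kept their call without any single library, and genes named after their values were seen are not in this tally. Calls were lost for IFI44L at 1 CPM in 3 libraries (adjusted p = 0.00292), DKK1 without regard to strand (0.00177), PSAT1 with library totals (0.00124) and AREG after thinning (0.00637). Over all groups, libraries with the same replicate number did not deviate together (18 pairs, r from -0.177 to 0.182, 5 of 12 libraries closest to their own number). The 2 pairs over 0.1 both joined H1047R vehicle with H1047R insulin, whose same-number pairs were all positive (0.182, 0.108 and 0.0584). Those of control vehicle with control insulin were -0.0688, -0.00574 and 0.0307. The numbers were not taken as pairs, and a replicate block gave 2062 calls, 2012 of them shared.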
